A study of Mus musculus with 16 samples.

Results

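CD27, a surface receptor of the tumour necrosis factor receptor family, was measured with a DNA-tagged antibody beside DNA methylation in single bone marrow cells of 3 mice. The cells were those with at least 100 tag UMIs (unique molecular identifiers, each 1 counted antibody tag molecule) in the libraries of LARRY replicate mouse 1, LARRY main mouse 3 and LARRY main mouse 4. They numbered 3103, 2675 and 1342 cells, which is 7120 of the 13550 cells in these libraries and of the 95930 cells in the 16 libraries of the series. LARRY mice carry blood cells marked with lentiviral DNA barcodes, each shared by the offspring of 1 marked stem or progenitor cell. All 3 libraries were labelled as mouse bone marrow. The strain, sex and age of the mice, the gate of any sort and the antibody dose were not stated in the labels.

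Methylation was read with scTAM-seq, in which a restriction enzyme that spares methylated CpGs cuts the DNA of each cell before a fixed panel of targets is amplified. A cell in which an amplicon gave at least 1 read was counted as methylated there. The panel held 663 amplicons, known here by panel identifiers only, so genes, positions and sequences are not given for them. The 3 libraries held 373319405, 322901468 and 394120385 reads in the order above, with a median of 45003.5 to 61981 reads per cell. Between 5 and 12 cell barcodes were shared by each pair of these libraries.

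CD27 binds the ligand CD70, and on lymphocytes it acts as a costimulatory receptor. In mouse bone marrow it is carried by many stem and progenitor cells, among them multipotent and lymphoid-primed progenitors, and it is used together with other surface proteins to divide the early stages of blood formation. Its gene, Cd27 (gene ID 21940), lies on chromosome 6 from 125232620 to 125237136 in GRCm38, the assembly that mm10 follows. The tag measures the protein at the cell surface and not the gene or its methylation.

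The labels of the LARRY bone marrow libraries name no cell type, and these are called progenitor libraries here. The tags of the 3 libraries gave a mixed picture and do not settle what the cells are. Over the 3 libraries, c-Kit, the receptor of stem cell factor, averaged 9.21 ± 0.44 UMIs per 100 tag UMIs, and from 3.36 to 3.83% of cells had none of it after each cell was thinned to 100 tag UMIs. Ter-119, an erythroid marker, averaged 1.34 ± 0.14 UMIs per 100 (SD, n = 3 libraries each). The class II molecules I-A/I-E averaged 9.35 ± 1.57, above c-Kit. Sca-1, CD135 and CD201, tags also used for stem cells and early progenitors, were low, with 1.59 ± 0.40, 0.98 ± 0.18 and 0.38 ± 0.10. Tag counts depend on each antibody, and c-Kit was also abundant in a library labelled as mature cells, given below. The 19 tags common to the 3 libraries held none for the T cell receptor complex or Ly-6G, so mature T cells and granulocytes could not be counted.

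CD27 was spread over a wide range in each mouse. CD27 had a median of 16 UMIs per cell in replicate mouse 1, against 11 in main mouse 3 and 7 in main mouse 4, with means of 35.5, 21.3 and 17.0 UMIs. As a mean share of a cell's tag UMIs it reached 6.98% in replicate mouse 1, 6.45% in main mouse 3 and 5.16% in main mouse 4. Between 7.03% (replicate mouse 1) and 12.6% (main mouse 4) of cells had no CD27 UMI, with 9.64% in main mouse 3. The order of the 3 mice was thus the same for the median, the mean and the mean share per cell. With UMIs pooled over the same cells the share was 5.35%, 5.46% and 4.68%, which put main mouse 3 first. With 1 library per mouse the order was not tested. The libraries also differed in depth, with a median of 301, 215 and 212 tag UMIs per cell.

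After each cell was thinned to 100 tag UMIs, so that depth no longer differed, CD27 averaged 7.01 UMIs in replicate mouse 1, 6.44 in main mouse 3 and 5.18 in main mouse 4. The variance over cells was 7.15, 6.17 and 6.56 times the mean, where counting error alone gives about 1. At this depth 16.6%, 17.1% and 22.3% of cells had no CD27, and 30.9%, 30.02% and 22.5% had 10 or more. The distribution had its mode at 0 and a long tail, with at most 38, 33 and 27 CD27 UMIs per 100, and no gap between low and high cells. Low and high cells are treated below as ranges of the count, and whether they hold separate populations was not tested.

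**Figure D1:**
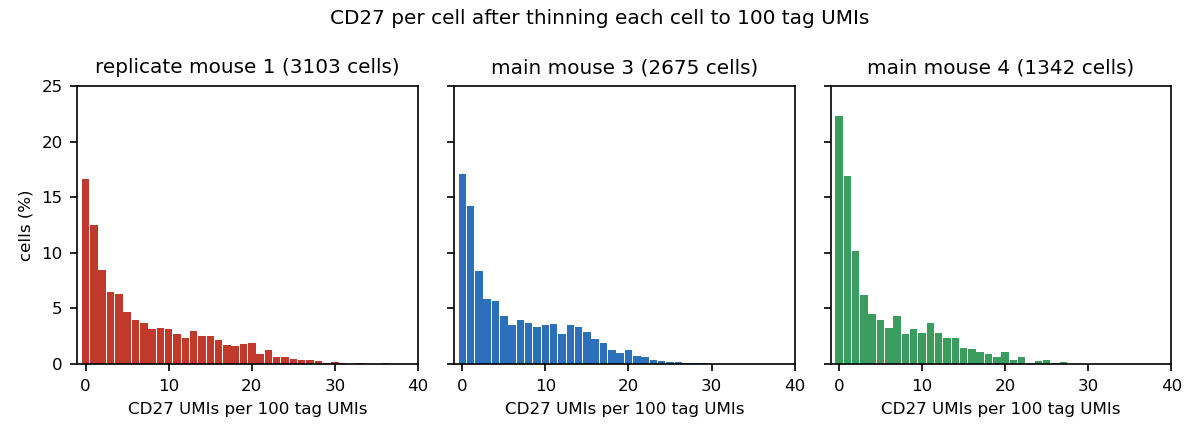
Share of cells (y axis, percent) with each number of CD27 UMIs (x axis) after each cell was thinned to 100 tag UMIs, in 1 panel per library. In all 3 panels the bar at 0 is the tallest (16.6% in replicate mouse 1, 17.1% in main mouse 3, 22.3% in main mouse 4) and the rest falls off without a gap.

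CD27 UMIs were also found outside cells. In all cells, with no minimum of tag UMIs, CD27 took 5.35%, 5.28% and 4.70% of tag UMIs in replicate mouse 1, main mouse 3 and main mouse 4. Over barcodes that were no cell of the methylation table it took 4.44%, 3.60% and 3.59%. Those of them with at least 100 tag UMIs had 4.13%, 4.33% and 3.88%. Cells held 32.4%, 15.3% and 13.7% of all tag UMIs, so most tag UMIs lay outside cells. The share in cells was above the share outside cells in all 3 libraries, and low CD27 counts lie where background UMIs are found. The part that background plays in single low cells was not tested.

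Among the 19 common tags, CD27 ranked 6th by mean level after thinning, below CD49f, CD48, I-A/I-E, c-Kit and CD9. These ranks compare tag counts, which depend on each antibody as well as on the protein. CD27 ranked 16th by its variation over cells beyond counting error, a coefficient of variation of 0.957 averaged over the 3 libraries. The 3 tags below it were c-Kit (0.756), CD48 (0.621) and CD49f (0.520). The tag with the highest value was Ter-119 in replicate mouse 1 (4.21), CD90 in main mouse 3 (2.61) and CD201 in main mouse 4 (3.95).

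Of 8 libraries with a tag table, 4 held the CD27 tag. Beside the 3 progenitor libraries it was the library of mature myeloid cells from marrow and blood, whose panel also held 6 isotype control antibodies, which bind no mouse protein by design. In its 3902 cells with at least 100 tag UMIs, CD27 averaged 4.98 UMIs, and the 6 isotype controls averaged from 2.98 to 6.26 UMIs. CD27 thus lay within the range of the controls in that library, where c-Kit averaged 70.4 UMIs although the label names mature cells. The tag panels differ, so its level cannot be set against the progenitor libraries.

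CD27 was related to most other surface proteins. To show this, the cells of each library were cut into the highest and the lowest 33.3% for each other tag, within bins of total tag UMIs and of reads. CD27 was then taken as a share of the UMIs of all tags other than the one that cut the classes. UMIs summed over cells are dominated by a few cells, since the 1% of cells with the most tag UMIs held 26.1%, 17.7% and 16.8% of all tag UMIs. The values given for single tags therefore weigh each cell equally, by thinning it to 100 tag UMIs, an alternative chosen after seeing the data. The edgeR test on UMIs as counted, which was the planned one, is given beside them.

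Across the 18 other tags, CD27 was lower in tag-high cells for 11 and higher for 3 by the edgeR test on thinned cells, and lower for 15 and higher for 1 on UMIs as counted. The same comparison over all 342 ordered pairs of tags called 68.7% of pairs on thinned cells and 74.0% on UMIs as counted, with 23.7% called lower in both. Being called is thus the rule among these tags. For 12 tags both fits called the same direction, and 11 of these were lower.

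The 1 tag with more CD27 in both fits was CD49f, the integrin alpha 6 chain of a laminin receptor. CD27 was 12.7%, 13.6% and 10.9% of the other tags' UMIs in CD49f-high cells, against 4.84%, 3.93% and 2.62% in CD49f-low cells of replicate mouse 1, main mouse 3 and main mouse 4. The classes did not overlap, and the ratio was 3.36-fold over the 3 libraries (log2 1.75 ± 0.14 SE, edgeR adjusted p = 2.54e-06). On UMIs as counted the log2 difference was 1.29 ± 0.27 SE (edgeR adjusted p = 0.0131), and without main mouse 4 it was 1.05 and no longer passed (edgeR adjusted p = 0.0730).

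CD48, a SLAM family protein gained as stem cells turn into multipotent progenitors, went the same way on thinned cells. CD27 was 11.9%, 8.47% and 7.69% in CD48-high cells, against 6.28%, 6.19% and 4.44% in CD48-low cells of replicate mouse 1, main mouse 3 and main mouse 4 (log2 0.72 ± 0.12 SE, edgeR adjusted p = 0.000338). In c-Kit-high cells it was 8.08%, 7.63% and 7.01%, against 6.09%, 4.91% and 3.41% in c-Kit-low cells (log2 0.69 ± 0.13 SE, edgeR adjusted p = 0.000806). CD27 was higher in the high class in each of the 3 libraries for both tags. On UMIs as counted neither passed, with log2 differences of 0.13 for CD48 (edgeR adjusted p = 0.443) and 0.27 for c-Kit (edgeR adjusted p = 0.303).

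The largest difference in the other direction was found for CD150, a SLAM receptor of stem cells and of megakaryocyte progenitors. CD27 was 4.34%, 4.11% and 3.06% in CD150-high cells, against 9.46%, 8.39% and 6.93% in CD150-low cells of replicate mouse 1, main mouse 3 and main mouse 4. The classes did not overlap, and CD27 in CD150-high cells was 0.463 times that in CD150-low cells (log2 -1.11 ± 0.11 SE, edgeR adjusted p = 8.02e-06). The value on UMIs as counted was -1.81 ± 0.14 SE (edgeR adjusted p = 0.000666).

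CD127, the interleukin 7 receptor chain of lymphoid progenitors, followed with 5.51%, 3.91% and 2.82% CD27 in CD127-high cells, against 7.97%, 8.37% and 6.98% in CD127-low cells (log2 -0.98 ± 0.15 SE, edgeR adjusted p = 0.000148). CD9, a tetraspanin of megakaryocytes and platelets, had log2 -0.96 ± 0.11 SE (edgeR adjusted p = 1.65e-05), and Ter-119 had log2 -0.93 ± 0.11 SE (edgeR adjusted p = 3.28e-05). For CD9 the classes held 4.90%, 4.60% and 3.75% in CD9-high cells, against 9.51%, 8.71% and 7.46% in CD9-low cells. For Ter-119 they held 4.81%, 4.38% and 3.19% in Ter-119-high cells, against 8.27%, 8.19% and 6.92% in Ter-119-low cells. None of these classes overlapped. CD150, CD127 and Ter-119 had low counts, with a median of 1 or 2 UMIs per cell in each library. Their classes are thus cut on few UMIs.

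The other 7 tags with less CD27 in both fits ranged from log2 -0.51 to -0.75 on thinned cells. They were ESAM (-0.75), an adhesion molecule of endothelium and stem cells, CD34 (-0.73), a sialomucin of progenitors, and the integrin beta 3 chain CD61 (-0.69). The others were the IgE receptor chain FceRIa (-0.67), the macrophage colony stimulating factor receptor CD115 (-0.55), the integrin alpha IIb chain CD41 (-0.54) and the endothelial protein C receptor CD201 (-0.51). Each was lower in 3 of 3 libraries. CD201 had a median of 0 UMIs per cell in each library, and FceRIa had 0 in replicate mouse 1 and 1 in both main mice. The classes of these tags too are cut on few UMIs.

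The remaining tags depended on how cells were weighed. CD90 (Thy-1), Sca-1, CD135 (Flt3) and the class II molecules I-A/I-E had less CD27 in tag-high cells on UMIs as counted, with log2 differences of -0.95, -0.72, -0.62 and -0.51. On thinned cells these were -0.26, -0.051, 0.072 and 0.23, and none passed (edgeR adjusted p = 0.0967, 0.687, 0.655 and 0.0720). For CD135 the libraries parted on thinned cells, with log2 0.47 in replicate mouse 1 and -0.12 and -0.14 in main mouse 3 and main mouse 4. CD16/32, the Fc gamma receptors of myeloid progenitors, had counts in cells of the main mice only. There CD27 was 4.47% and 3.16% in CD16/32-high cells, against 7.81% and 6.48% in CD16/32-low cells of main mouse 3 and main mouse 4, with no test over these libraries.

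**Figure D2:**
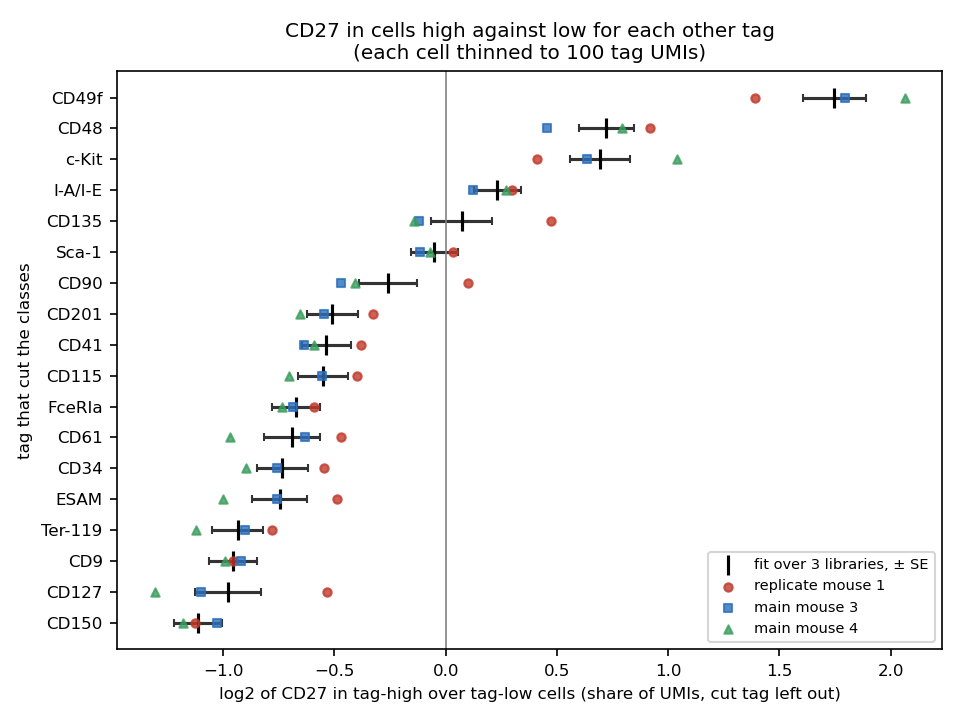
Log2 ratio of CD27 in tag-high over tag-low cells (x axis, CD27 as a share of the UMIs of all tags but the cut one, each cell thinned to 100 tag UMIs) for each of the 18 other tags (y axis). Coloured points are the 3 libraries and black marks the edgeR fit with its SE, which runs from 1.75 for CD49f to -1.11 for CD150.

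Across cells, the rank of CD27 followed that of CD49f most closely, given reads and the total UMIs of the tags outside the pair compared. The partial correlation was 0.569, 0.619 and 0.603 in replicate mouse 1, main mouse 3 and main mouse 4. c-Kit came next with a mean of 0.339, followed by CD48 with 0.235. The 3 lowest means were those of Ter-119 (-0.225), CD127 (-0.215) and CD150 (-0.191). All tags of a cell share its depth and its total, so these values describe the cells of each library and carry no test.

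CD27 was also taken in cells cut by pairs of tags. Cells low for CD150 and high for CD48 had 14.2%, 9.97% and 9.43% CD27 of the UMIs of the remaining tags in replicate mouse 1, main mouse 3 and main mouse 4, averaged over cells. Cells low for both had 9.26%, 9.78% and 6.19%. Cells high for both had 5.39%, 4.89% and 4.22%, and cells high for CD150 and low for CD48, the SLAM pattern of stem cells, had 4.98%, 4.40% and 2.80%. In each library the 2 ranges low for CD150 were above the 2 ranges high for CD150. By the share of cells in the highest 33.3% for CD27, the means of 3 libraries were 42.8% in cells low for CD150 and high for CD48, 42.2% in cells low for both, 21.2% in cells high for both and 12.2% in cells high for CD150 alone. By this measure, cells low for both were above those low for CD150 and high for CD48 in replicate mouse 1 (45.7% and 41.6%) and main mouse 3 (46.9% and 37.1%), and below them in main mouse 4 (33.9% and 49.7%).

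With Sca-1 and c-Kit, the mean CD27 share was 7.91 ± 0.723% in cells low for Sca-1 and high for c-Kit, 6.75 ± 1.04% in cells high for both, 5.79 ± 1.14% in cells high for Sca-1 alone and 3.94 ± 1.23% in cells low for both (SD, n = 3 libraries each). The cells low for both had the smallest share. The first 2 ranges overlapped over the libraries, with 7.08 to 8.42% and 5.55 to 7.45%. With CD135 and CD127, cells high for CD135 and low for CD127 had 9.79 ± 1.20%, above 3.85 ± 1.44% in cells high for both, 4.48 ± 1.1% in cells high for CD127 alone and 6.76 ± 0.608% in cells low for both. Cells high for the megakaryocyte integrins CD41 and CD61 had 4.06 ± 1.42%, and cells low for both had 7.71 ± 0.910%. These ranges are cut from tag counts and are not cell types, and no test was run on them.

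For methylation, cells of each library were divided in the same way into the highest and lowest 33.3% for CD27. CD27-high cells had a median of 50, 31 and 25.5 CD27 UMIs, against 2, 1 and 1 in CD27-low cells of replicate mouse 1, main mouse 3 and main mouse 4. The 3 libraries gave 1023, 880 and 440 cells to each class. The median number of reads was 68583, 45878 and 37333 in CD27-high cells, against 67325, 46146.5 and 35911.5 in CD27-low cells. Cells with and without a read were counted per library and class and tested with edgeR over the 3 libraries.

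Of 596 amplicons with a mean methylated share of 2 to 98%, 170 differed between CD27-high and CD27-low cells (edgeR, adjusted p under 0.05 over all pairs of tag and amplicon), which is 28.5%. Over all 11324 pairs of the 19 tags with these amplicons, 21.2% were called. CD27 was level with CD150 (170), after CD61 (182), ESAM (175) and CD49f (173). More amplicons were methylated in a larger share of CD27-high cells (106) than in a smaller one (64), where all pairs had 15.2% called higher and 6.00% called lower in tag-high cells. Of the calls for CD27 62.4% were higher, against 71.7% of the calls over all pairs. The calls for CD27 thus leaned less to the higher side than those of all pairs together. With a minimum of 300 tag UMIs the balance turned round, to 55 higher and 65 lower. All 170 had the same sign in 3 of 3 libraries, against 373 of all 596 and 203 of the 426 not called. The 170 were called from these same libraries, so this agreement is no replication. Without main mouse 3 the count fell to 80 and without main mouse 4 to 111, while without replicate mouse 1 it was 209, and DESeq2 called 89.

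Most differences were modest in size. The median over the 106 higher amplicons was 7.64 percentage points and over the 64 lower ones -7.71 points, and 38 and 20 of them passed 10 points. Over all 596 amplicons the median was 1.22 points. The 2 sets sat at different levels of methylation, taken over the cells with at least 100 tag UMIs. The median share was 78.7% for the amplicons higher in CD27-high cells and 22.9% for the lower ones. Of 30 amplicons methylated in under 10% of cells 3 were higher and 11 lower, and of 98 methylated in over 90% of cells 20 were higher and none was lower.

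The amplicons named from here on were chosen in these same libraries for large differences of the same sign. That choice favours classes that keep apart, so the lack of overlap is a description and no further evidence. Of the 8 amplicons with the largest rise in log odds, AMPL388659 stood at the top. It was methylated in 98.2%, 97.7% and 97.3% of CD27-high cells, against 82.6%, 81.6% and 82.0% of CD27-low cells of replicate mouse 1, main mouse 3 and main mouse 4. The difference was 15.7 ± 0.455 points (SD, n = 3 libraries), or 2.29 ± 0.13 in natural log odds (SE, edgeR adjusted p = 0.000135). The classes were far apart in each library, and the 3 mice gave nearly the same values.

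AMPL371238 was methylated in 99.2%, 98.5% and 96.8% of CD27-high cells, against 88.8%, 86.02% and 85.2% of CD27-low cells (log odds 2.26 ± 0.19 SE, edgeR adjusted p = 0.000148). AMPL376551 was methylated in 96.6%, 96.9% and 93.4% of CD27-high cells, against 75.9%, 80.6% and 78.4% of CD27-low cells (log odds 1.90 ± 0.15 SE, edgeR adjusted p = 0.000148). AMPL388246 had 96.4%, 95.5% and 94.3% in CD27-high cells, against 77.1%, 77.4% and 77.5% in CD27-low cells (log odds 1.84 ± 0.12 SE, edgeR adjusted p = 0.000135). For all 3, CD27-high cells were above CD27-low cells in each library without overlap between the classes.

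The other 4 amplicons with the largest rise also did not overlap between classes. AMPL366022 averaged 93.6 ± 0.653% in CD27-high cells and 77.5 ± 0.625% in CD27-low cells, and AMPL388186 averaged 98.3 ± 1.07% in CD27-high cells and 93.6 ± 1.54% in CD27-low cells (SD, n = 3 libraries). AMPL388354 averaged 93.7 ± 3.00% in CD27-high cells and 81.1 ± 2.54% in CD27-low cells. AMPL355546 had the widest gap in points of all amplicons that rose, with 90.8%, 88.6% and 90.5% in CD27-high cells, against 62.8%, 70.5% and 76.8% in CD27-low cells of replicate mouse 1, main mouse 3 and main mouse 4. Its CD27-high values were close together and its CD27-low values were spread over the mice.

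Among the amplicons that fell, AMPL365938 showed the largest difference in points of the 596. It was methylated in 22.9%, 25% and 23.0% of CD27-high cells, against 50.5%, 54.0% and 50% of CD27-low cells of replicate mouse 1, main mouse 3 and main mouse 4. The difference was -27.9 ± 0.987 points (SD, n = 3 libraries), or -1.24 ± 0.08 in log odds (SE, edgeR adjusted p = 0.000135). The mice agreed within a few points in both classes. An association of CD27 with this amplicon was known from earlier results on the same cells, so it is no independent evidence.

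The largest fall in log odds was that of AMPL388255, which is rarely methylated. It was methylated in 1.47%, 1.36% and 1.82% of CD27-high cells, against 5.87%, 6.93% and 6.14% of CD27-low cells (log odds -1.48 ± 0.16 SE, edgeR adjusted p = 0.000387). AMPL388287 was alike in level, with 1.86%, 2.50% and 3.18% in CD27-high cells, against 5.08%, 7.05% and 9.09% in CD27-low cells (log odds -1.07 ± 0.13 SE, edgeR adjusted p = 0.000795). AMPL355730 had 7.82%, 3.64% and 4.55% in CD27-high cells, against 17.7%, 13.1% and 10% in CD27-low cells (log odds -1.06 ± 0.13 SE, edgeR adjusted p = 0.000757). In each of the 3 the classes kept apart, at a level where most cells of either class had no read.

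AMPL377174 had the highest methylated share of the 8. It had 68.7%, 76.8% and 76.8% in CD27-high cells, against 91.3%, 89.4% and 91.4% in CD27-low cells (log odds -1.23 ± 0.13 SE, edgeR adjusted p = 0.000416). AMPL388335 averaged 46.0 ± 3.07% in CD27-high cells and 66.8 ± 3.61% in CD27-low cells, AMPL388409 averaged 15.2 ± 3.02% in CD27-high cells and 30.7 ± 4.40% in CD27-low cells, and AMPL355618 averaged 23.3 ± 2.01% in CD27-high cells and 41.4 ± 0.827% in CD27-low cells (SD, n = 3 libraries). For these amplicons too the 3 CD27-high values lay below the 3 CD27-low values.

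**Figure D3:**
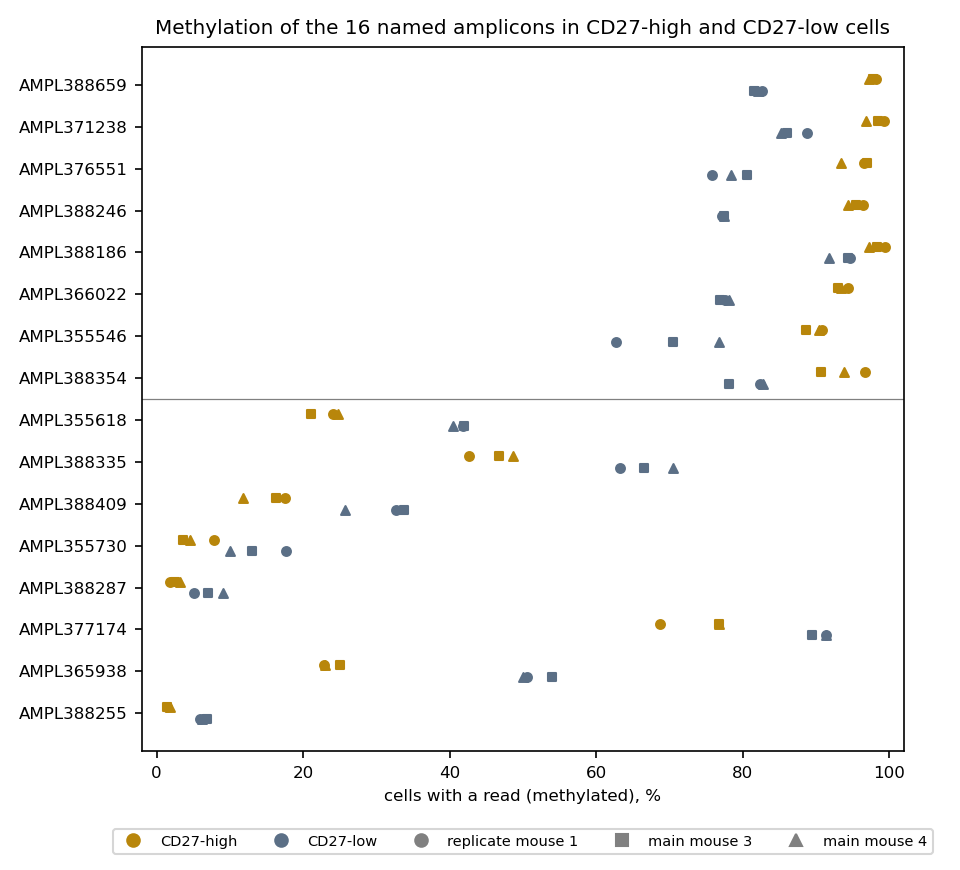
Share of cells with a read (x axis, percent) in CD27-high cells (gold) and CD27-low cells (slate) of each library (marker shape) for the 8 amplicons with the largest rise and the 8 with the largest fall in log odds (y axis). For none of the 16 do the classes overlap, from AMPL388659 (97.3 to 98.2% in CD27-high cells, 81.6 to 82.6% in CD27-low cells) to AMPL388255 (1.36 to 1.82% in CD27-high cells, 5.87 to 6.93% in CD27-low cells). The 16 were chosen for large differences in these libraries, which favours this.

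The 16 amplicons were then followed over 5 equal groups of cells by CD27 within the same bins, numbered 1 (lowest) to 5 (highest). AMPL388659 averaged 81.5%, 83.8%, 90.9%, 96.2% and 98.4% methylated over groups 1 to 5 (means of 3 libraries). AMPL365938 averaged 53.0%, 49.1%, 45.1%, 31.9% and 19.9%. For 11 of the 16 the means moved in 1 direction over all 5 groups, and in single libraries this held for 25 of 48 amplicon and library pairs. The choice of the 16 by their difference between high and low cells favours such a course. The same count was not made over all 596 amplicons, so these counts only describe the 16. The largest step of AMPL388659 lay between groups 2 and 3, and that of AMPL365938 between groups 3 and 4. AMPL388255 instead had 5.6%, 7.1%, 4.5%, 2.0% and 1.2%, highest in group 2.

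**Figure D4:**
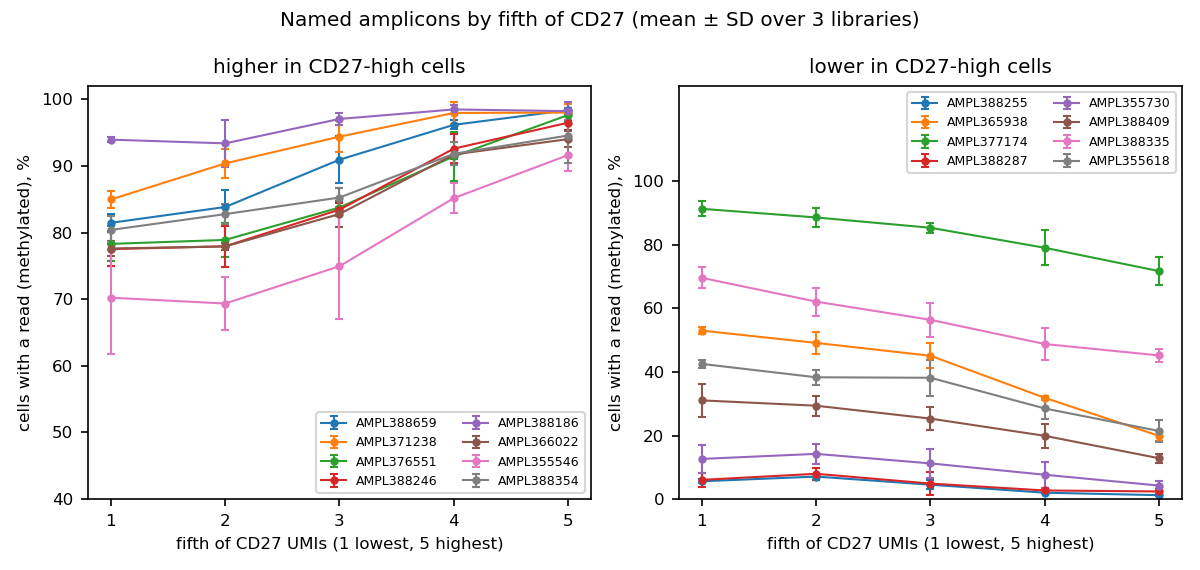
Share of cells with a read (y axis, percent, mean and SD over 3 libraries) in 5 equal groups of cells by CD27 UMIs (x axis, 1 lowest) for the 8 amplicons higher (left) and the 8 lower (right) in CD27-high cells. The left axis starts at 40%. AMPL388659 climbs to 98.4% in group 5 and AMPL365938 drops to 19.9%.

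Partial correlations across cells, between the rank of CD27 and the call of each amplicon given reads and total tag UMIs, were small. The most positive mean over the 3 libraries was 0.240 (AMPL388659, with 0.232, 0.237 and 0.251 in replicate mouse 1, main mouse 3 and main mouse 4). The most negative was -0.256 (AMPL365938, with -0.242, -0.269 and -0.256). The median over the 106 higher amplicons was 0.092 and over the 64 lower ones -0.093, against 0.014 over all 596. With the ranks of the other 18 tags also given, the 2 values became 0.209 and -0.113. Over the called amplicons the median ratio of the value given the other tags to that without them was 0.582 for higher ones and 0.245 for lower ones. It was 0.474 over all 596 amplicons and 0.510 over those not called. The lower amplicons thus kept a smaller part of their value, and the higher ones lay closer to the ratio of all amplicons. The 16 amplicons are no independent set, since their calls come from the same cells.

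The amplicons of CD27 were mostly also those of other tags. Of the 170, 10 were called for no other tag, 121 were called for at least 5 others, and the median was 8 others. Over all 596 amplicons, 234 were called for none of these 18 tags, 212 for at least 5, and the median was 1. The share called for at least 5 was thus 71.2% among those called for CD27, against 35.6% of all. The 8 amplicons with the largest rise were called for 4 to 11 other tags, and the 8 with the largest fall for 11 to 17. Over the 596 amplicons, the log odds differences for CD27 were most like those for CD49f (Pearson r 0.558), CD48 (0.362) and c-Kit (0.115). They were least like those for Ter-119 (-0.844), CD127 (-0.753) and FceRIa (-0.723). These profiles come from the same cells and from tags counted in 1 total, and r is given across amplicons as a description.

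CD49f, the closest tag by both measures, was then held apart. With 3 equal ranges of CD49f added to the bins, chosen after seeing the data, 137 amplicons were called for CD27, of which 109 were among the 170. All 8 amplicons with the largest rise still passed, from log odds 1.69 for AMPL388659 to 0.98 for AMPL388354. Of the 8 with the largest fall, 6 passed, and AMPL388255 (log odds -0.38, edgeR adjusted p = 0.156) and AMPL388287 (-0.15, edgeR adjusted p = 0.559) did not. Of the 6, AMPL388335 came closest to 0, with log odds of -0.32 (edgeR adjusted p = 0.0134) against -0.86 without CD49f in the bins, and the others ranged from -0.54 to -0.97.

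The shares in the 4 ranges of both tags show the same split. For AMPL388659, cells high for CD27 had 97.2% when also high for CD49f and 96.9% when low for it, while cells low for CD27 had 81.7% and 82.2% (means of 3 libraries). Its level went with CD27 in either range of CD49f. For AMPL388255, 9.10 ± 0.774% of cells low for both were methylated, against 1.35% of cells high for both, 1.48% of cells high for CD27 alone and 2.18% of cells high for CD49f alone. For this amplicon only the range low for both stood out in all 3 libraries. AMPL388335 had 42.1% in cells high for both and 40.7% in cells high for CD49f alone, against 55.4% in cells high for CD27 alone and 77.6% in cells low for both. Within CD49f-high cells its classes of CD27 overlapped, and within CD49f-low cells they did not. The ranges that disagree are small, with 42 to 163 cells high for CD27 and low for CD49f.

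**Figure D5:**
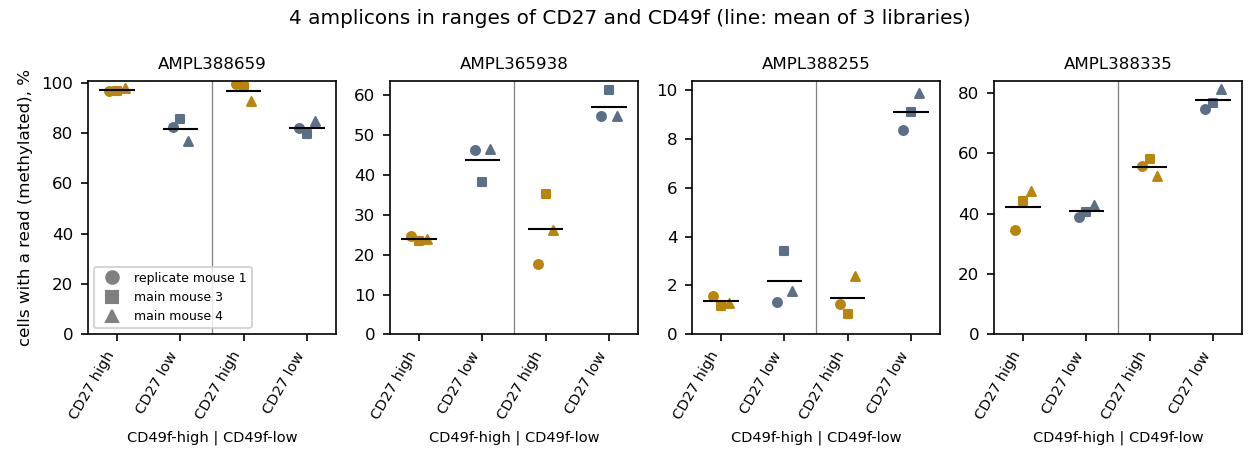
Share of cells with a read (y axis, percent, from 0) for 4 of the 16 amplicons in cells high or low for CD27 within CD49f-high (left of the grey line) and CD49f-low cells (right), with 1 marker per library and the mean as a line. AMPL388659 and AMPL365938 differ between CD27-high and CD27-low cells on both sides of the line, and AMPL388255 and AMPL388335 mainly on the right.

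A cell's overall methylation was measured as the share of 404 intermediate amplicons with a read, those methylated in 25 to 90% of cells on average over the bone marrow libraries. It was 70.5%, 63.9% and 65.6% in CD27-high cells, against 68.2%, 62.5% and 62.8% in CD27-low cells of replicate mouse 1, main mouse 3 and main mouse 4. CD27-high cells were above CD27-low cells within each mouse, by 2.27, 1.36 and 2.84 points; replicate mouse 1 was above both main mice by more than this in either class. The mean difference was 2.16 ± 0.501 points (SE, limma adjusted p = 0.000704 over the 19 tags), below those of CD61 (3.92) and Sca-1 (2.34) and above those of the other tags, and 52.6% of tags were called. It did not pass with a minimum of 300 tag UMIs (1.45 points, limma adjusted p = 0.228) or without main mouse 4 (1.82 points, limma adjusted p = 0.0540).

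Detection of amplicons also moved with CD27. The 77 constitutive amplicons, for which each library had reads in 90% or more of its cells, gave reads in 99.1%, 97.5% and 97.1% of CD27-high cells, against 98.8%, 96.8% and 96.9% of CD27-low cells. When cells were binned by the number of constitutive amplicons read in place of reads, chosen after seeing the data, the difference in the intermediate share was 1.53 points (limma adjusted p = 0.00331). It was thus smaller and still past the threshold, with 1.47, 0.54 and 2.59 points in replicate mouse 1, main mouse 3 and main mouse 4. By that binning 167 amplicons were called for CD27, 155 of them among the 170.

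The differences between CD27-high and CD27-low cells were compared between the replicate mouse and the 2 main mice by an interaction term in edgeR. The replicate arm is 1 library with no spread of its own, which the fit assumes to vary like the main mice, so its calls describe that library and do not show that the experiments differ. The term passed for 13 of the 596 amplicons, which is 2.18%, where all pairs of tag and amplicon had 8.86%. Among the 16 amplicons named above they were AMPL388354, AMPL355546 and AMPL377174. AMPL388354 had a log odds difference of 1.81 in replicate mouse 1, against 1.00 and 1.15 in main mouse 3 and main mouse 4. AMPL355546 had 1.76 in replicate mouse 1, against 1.18 and 1.04, and AMPL377174 had -1.56 in replicate mouse 1, against -0.93 and -1.15. All 3 kept their direction in each mouse and were farther from 0 in the replicate mouse. With 1 replicate library, the experiment, its staining and the mouse cannot be told apart.

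The 2 sets of amplicons were last looked up in libraries that played no part in choosing them, each a single library with no test. In lung endothelial cells, the 64 amplicons lower in CD27-high cells had a median of 83.1% methylated, against 22.0% in the mean of main mouse 1, main mouse 2 and replicate mouse 2. Of these amplicons 53 were above the progenitor mean, or 82.8%, where 46.5% of all 596 were. In mature immune cells of marrow and spleen 47 of the 64 were above the progenitor mean, or 73.4% against 56.9% of all amplicons. In mature myeloid cells of marrow and blood 20 were, or 31.2% against 25%. In lung myeloid cells 37 were, or 57.8% against 37.1%. The 106 amplicons higher in CD27-high cells were above the progenitor mean in 39.6% of cases in mature immune cells of marrow and spleen, against 56.9% of all amplicons. The share was 41.5% against 46.5% in lung endothelial cells, 34.9% against 37.1% in lung myeloid cells and 29.2% against 25% in mature myeloid cells of marrow and blood. By these counts the 64 lower amplicons were above the share of all amplicons in each of these 4 libraries, and the 106 higher ones below it in 3 of them. The sets were not matched for level, with progenitor medians of 22.0% and 75.1%, against 68.9% for all 596. The lower set thus had more room to rise. The 4 libraries were also read less deeply, with medians of 14693 to 28223.5 reads per cell, against 52565 to 89971 in the 3 progenitor libraries. The part of level and depth in these shares was not tested. AMPL388255 was methylated in 97.8% of lung endothelial cells, against 1.68% to 4.11% of cells in those 3 progenitor libraries, and AMPL365938 in 85.2%, against 38.9% to 48.1%. AMPL376551, higher in CD27-high cells, had 20.2% in lung endothelial cells, against 77.9% to 82.8% in the progenitor libraries. It was the exception among the 8 amplicons with the largest rise. The others had 87.9% to 99.5% in lung endothelial cells, each above its values in those 3 progenitor libraries. Of the 8 with the largest fall, AMPL355618 was lower in lung endothelial cells (25.6%, against 29.0% to 39.5%). AMPL388287 stayed low (2.88%, against 1.56% to 2.59%), and the rest were higher there.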

How the data were processed

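Reads per cell and amplicon were deposited by the authors as raw counts, and antibody tags as UMI counts per cell barcode, per the file headers. The submitters' processing notes name mm10 as the build. No source used here names an aligner, a cell caller or a filter on cells. Doublets were not called. One setting dropped the densest 5% of cells by amplicons read. The members, lists and tests were chosen with earlier results of these data known.

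Cells with at least 100 tag UMIs were cut into the highest and lowest 33.3% for each tag within 5 bins of total tag UMIs and 4 bins of reads of their library, with ties in seeded random order. An amplicon was methylated at 1 or more reads. Cells that had or lacked a read were counted per library and class and tested with edgeR 4.0.16 in R 4.3.3 (quasi-likelihood, Benjamini-Hochberg at 0.05 over 11324 pairs of 19 tags and 596 amplicons with a mean share of 2 to 98%). The model had an intercept per library and class, a baseline log odds per library and a term for the high class, and effects are natural log odds. Tag UMIs summed per library and class were tested with edgeR over 342 ordered tag pairs, with the UMIs of all tags but the cut one as offset. The intermediate share was tested with limma 3.58.1 over 19 tags. Libraries, 1 per mouse, were the replicates, and both classes are cells of the same mouse, so the pairing comes from the design. Named amplicons were, among those called with the same sign in 3 of 3 libraries, the 8 that rose most and the 8 that fell most in log odds, plus AMPL365938, which was among them. The edgeR and limma scripts were tested on simulated data. Alternatives, DESeq2 1.42.0 among them, are in the closing section.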

Additional observations from a re-analysis of the deposited data

Results flagged for a closer look

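For 13 of the 596 amplicons the difference between CD27-high and CD27-low cells in replicate mouse 1 stood apart from that in the 2 main mice (edgeR interaction term, adjusted p under 0.05 over all pairs, 1 library against 2). The single replicate library is assumed to vary like the main mice, so these p-values describe that library and do not show that the experiments differ. Of the 16 named amplicons, 3 were among them. For AMPL388354 the log odds difference of replicate mouse 1 exceeded that of the main mice by 0.778 (edgeR adjusted p = 0.0269) and for AMPL355546 by 0.625 (edgeR adjusted p = 0.0200). For AMPL377174 the replicate mouse was below the main mice by a log odds difference of -0.553 (edgeR adjusted p = 0.0497). Each had the same direction in 3 of 3 mice.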

How the results depend on the processing

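Against 170 amplicons called for CD27 in edgeR (106 higher, 64 lower), DESeq2 called 89 (55 and 34), a fit of CD27 pairs alone 261 (175 higher), a minimum of 300 tag UMIs gave 55 higher and 65 lower, no minimum 147 higher and 46 lower, and classes of the highest and lowest 10% gave 67 higher. Leaving out each library gave 80 to 209 calls, with 57 to 134 higher and 23 to 75 lower. Both classes come from the same mouse, and with no replicate block 3 amplicons were called, all higher and 0 lower, where 91 had an unadjusted p under 0.05 in edgeR. For the replicate against the main mice, no paired analysis was possible because they share no mouse number. Apart from the block, all but 3 of 395 values of the 16 named amplicons under the other settings run kept direction and call. The exceptions were AMPL388255 and AMPL388287 with CD49f in the bins and AMPL388287 with classes of 10% (-0.61, edgeR adjusted p = 0.170).

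With each cell thinned to 100 tag UMIs, CD27 turned round for CD135 (0.072) and I-A/I-E (0.23) and was higher for 3 tags in place of 1. On UMIs as counted, leaving out each library gave 0 to 2 such tags, and this was not repeated on thinned cells. The intermediate share gave 1.45 points at 300 tag UMIs and 1.82 to 2.56 without each library. At 2 reads a call, 21 amplicons passed the term for replicate against main mice. That comparison could not be fitted without a library. With no minimum of tag UMIs the mean CD27 share per cell of main mouse 3 was 4.90%, against 6.45% with it. The median of 7 to 16 CD27 UMIs per cell limits how firmly a single cell is placed.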
